A study of Ovis aries with 91 samples.

Results

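ENSOARG00000008817 and ENSOARG00000010493 were followed through every library of a study of atrial fibrillation in sheep. They are 2 of 13803 genes listed in any of the deposited tables, and all 3 tables list both. The pair was chosen by ID, from the comparison of chronic with control sheep in left atrial appendage whole tissue, where both had large increases and control sheep that differed widely. The left whole tissue values therefore chose the genes and are given as a description, with no test. The tables give Ensembl sheep IDs without names or positions, and none could be looked up in the RefSeq gene table (0 of 13803 matched), so what the genes encode is not stated here.

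Atrial fibrillation is a fast, irregular rhythm of the upper heart chambers. Rapid electrical pacing of the atria brings it about in large animals, and the atria change as the rhythm persists, with altered ion channels and contractile genes, growth of the muscle cells and scarring. The appendages are muscular pouches of the left and right atria, and the posterior left atrium is the wall around the openings of the pulmonary veins. Whole tissue holds muscle cells together with fibroblasts, vessels, nerves, fat and blood cells, while isolated cardiomyocytes are a preparation made up mainly of the muscle cells. In whole tissue, a change in the share of a cell type and a change in RNA per cell cannot be told apart.

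Fibrillation was induced by a tachypacing device in the right atrium, per the labels, whose treatment text is the same for every sample. Control sheep had the condition sham, apart from sheep C1, whose condition was control though its right whole tissue is titled sham. The labels name the other states transition and chronic and give no time for either. In whole tissue, left and right appendages came from control sheep S3, S4 and C1, transition sheep D24, D27 and D30, and chronic sheep D15, D16 and D19. Cardiomyocytes of both appendages came from control sheep S3, S4 and C1, transition sheep D23, D24 and D27, and chronic sheep D16, D19 and D20. Posterior left atrium came from 6 control sheep (S3, S4, C1, G21, G32 and G36) and 6 transition sheep (D24, D27, G5, G13, G26 and G34), of which the G-numbered transition sheep are titled saline. In the posterior left atrium the sheep is taken from its ID field, since the titles number S3, S4 and C1 differently. The labels give no breed, age or sex.

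Depth was 6241967 to 22382458 listed reads per library in whole tissue and 5305524 to 12434418 in cardiomyocytes. It is unknown for the posterior left atrium. Values are on the deposited log2 CPM scale, where CPM is reads scaled to library size and not corrected for gene length, and the 3 tables were normalised separately. On the first principal component of the cardiomyocyte table, with 24.3% of the variance, the left libraries of D24 and D27 scored 42.3 and 58.9, and all other libraries between −40.5 and 25.9. With no names for the IDs, the labelled tissues could not be checked against cell type markers.

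In left whole tissue ENSOARG00000008817 stood at 4.48 log2 CPM in S3, 4.69 in C1 and 9.25 in S4 among the controls. It stood at 4.34 in D30, 8.07 in D24 and 8.65 in D27 among transition sheep. Chronic sheep had 9.64 in D19, 10.61 in D16 and 12.03 in D15. Every chronic sheep lay above every control and transition sheep, and the controls held 1 sheep near the chronic level and 2 far below it. The control and chronic values chose the gene, and the share of all genes separated in this way on the left was not counted. The means were 6.14 ± 2.70 in controls, 7.02 ± 2.34 in transition and 10.76 ± 1.20 in chronic sheep (SD, n = 3 each), so the chronic mean was 4.62 log2 units or 24.5-fold above the control mean. Leaving out S4 made that difference 6.17, and leaving out S3 made it 3.79. The lowest of all 18 whole tissue libraries held 163 reads of the gene and the highest 28248, a 207-fold range in CPM.

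ENSOARG00000010493 in left whole tissue stood at 1.47 in C1, 6.02 in S3 and 6.43 in S4. Transition sheep were close together, with 5.65 in D24, 5.78 in D30 and 6.78 in D27. Among chronic sheep it reached 7.88 in D19, 8.53 in D16 and 10.77 in D15. Here a single control, C1, was far below the others, with 19 reads (95% exact Poisson interval 11.4 to 29.7, counting error only), and the other controls lay within the range of transition sheep. The means were 4.64 ± 2.75 in controls, 6.07 ± 0.62 in transition and 9.06 ± 1.52 in chronic sheep (SD, n = 3 each). The difference between chronic and control means was 4.42, and without C1 it was 2.84. The 2 genes thus owed their wide control SDs to different sheep, S4 at the high end for ENSOARG00000008817 and C1 at the low end for ENSOARG00000010493.

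**Figure D1:**
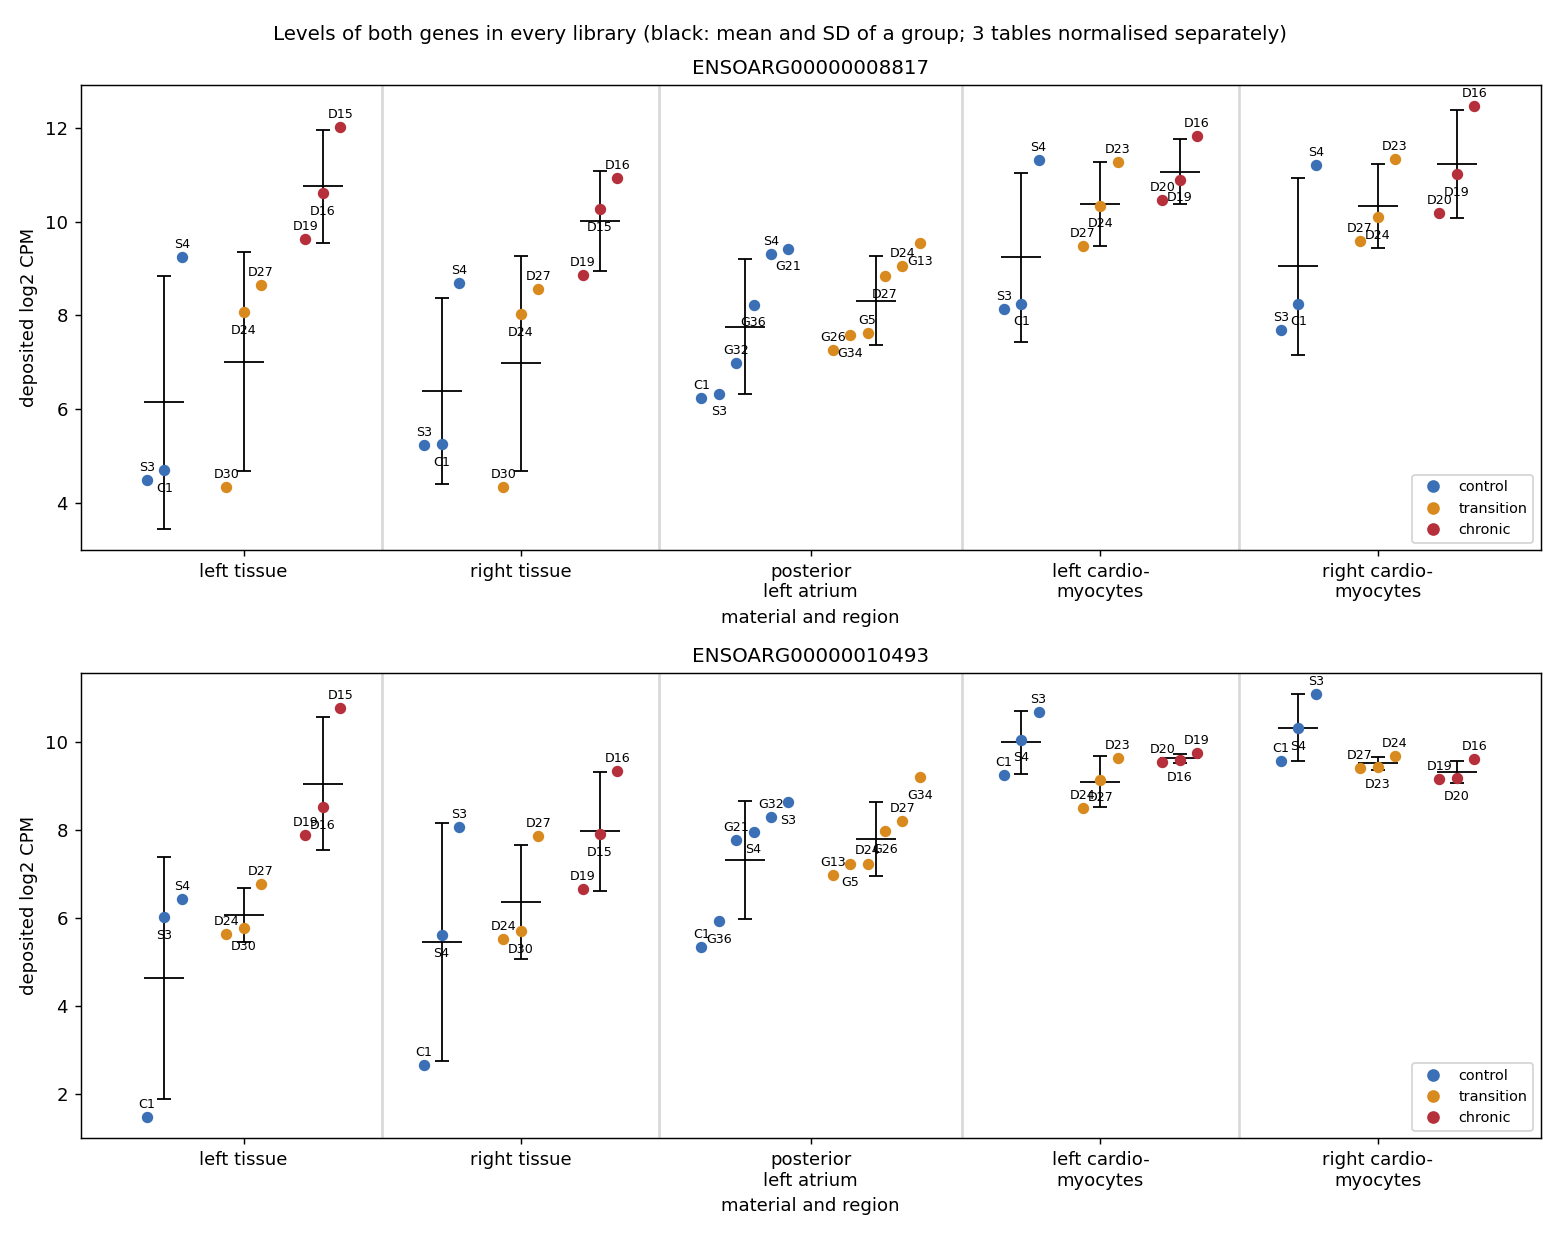
Deposited log2 CPM (vertical axis) of ENSOARG00000008817 (top) and ENSOARG00000010493 (bottom) in each library, by material, region and state, with each point labelled by its sheep and the mean and SD of each group in black. S4 lies far above S3 and C1 for the first gene in every panel column, and C1 is the lowest control for the second gene in every column.

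The right appendage libraries did not choose the genes, but they came from the same sheep as the left ones. Around the group means, left and right tissue of a sheep correlated at 0.93 for ENSOARG00000008817 and 0.71 for ENSOARG00000010493. Values and tests in the right appendage are therefore not independent of the choice. ENSOARG00000008817 there stood at 5.24 in S3, 5.25 in C1 and 8.68 in S4, against 8.86 in D19, 10.27 in D15 and 10.94 in D16. The chronic and control sheep did not overlap, though S4 and D19 were only 0.17 apart, and 9.18% of the genes tested had every chronic sheep above every control. The change was 3.63 ± 1.25 (SE), a 12.4-fold difference of means, and it did not pass the test over all genes (limma adjusted p = 0.169). For ENSOARG00000010493 the right controls stood at 2.66 in C1, 5.61 in S4 and 8.07 in S3, and the chronic sheep at 6.66 in D19, 7.90 in D15 and 9.35 in D16. These groups overlapped, since S3 was above D19 and D15. The change of 2.52 ± 1.21 (SE) did not pass either (limma adjusted p = 0.319). So 0 of the 2 genes were called, where limma called 1.26% of 12333 genes and 15.9% had an unadjusted p under 0.05; voom weights on recovered reads also called neither. ENSOARG00000008817 had an unadjusted p of 0.00980 and ENSOARG00000010493 of 0.0520. An exact two-sided permutation test gave p = 0.1 and p = 0.3, and 0.1 is the smallest p that 3 sheep against 3 can give. The change of ENSOARG00000008817 was 4.78 without S4 (limma adjusted p = 0.0703), 3.05 without S3 (limma adjusted p = 0.321) and 2.57 with sample quality weights (limma adjusted p = 0.236). Without C1 the change of ENSOARG00000010493 was 1.13 and without S3 it was 3.84, so its size rested on which control was kept.

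Transition sheep of the right appendage overlapped with controls in both genes. ENSOARG00000008817 stood at 4.34 in D30, 8.03 in D24 and 8.57 in D27, with an SD of 2.30 against 1.99 in the controls. Its change was 0.59 ± 1.25 (SE, limma adjusted p = 0.856), and without D27 it turned to −0.21. ENSOARG00000010493 stood at 5.53 in D24, 5.71 in D30 and 7.87 in D27, with a change of 0.92 ± 1.21 (SE, limma adjusted p = 0.756) that turned to −0.47 without C1. Neither gene was called, against 0.624% of all genes, or 15.2% at an unadjusted p under 0.05. In left whole tissue the differences between transition and control means were 0.87 and 1.43, and the second was −0.16 without C1. In the right appendage the state means of each gene ran from control, the lowest, through transition to chronic, the highest. The left appendage had the same order, but its control and chronic values chose the genes and its sheep are the same. Control and transition sheep overlapped in each appendage. The chronic and transition comparisons use the same control sheep, so they are not independent.

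In cardiomyocytes of the same appendages the 2 genes had chronic changes of opposite sign, though the genes were not tested against each other. The mean of ENSOARG00000008817 was higher in chronic than in control cardiomyocytes on both sides. That of ENSOARG00000010493 was lower in chronic cardiomyocytes, on both sides by an amount that depended on which control was kept. None of these differences passed the test. In left cardiomyocytes ENSOARG00000008817 stood at 8.14 in S3, 8.25 in C1 and 11.33 in S4 among controls. Chronic sheep had 10.47 in D20, 10.90 in D19 and 11.84 in D16. The control S4 lay above D20 and D19, so the groups overlapped. On the right the controls were 7.69 in S3, 8.25 in C1 and 11.20 in S4, and the chronic sheep 10.19 in D20, 11.01 in D19 and 12.47 in D16. Again S4 lay within the chronic range. The chronic change was 1.83 ± 0.75 (SE) on the left and 2.18 ± 0.75 (SE) on the right, with limma adjusted p of 0.149 and 0.103. Without S4 both passed, at 2.87 on the left (limma adjusted p = 0.0111) and 3.25 on the right (limma adjusted p = 0.00768). Those fits called 464 and 480 of 12274 genes. Leaving out any other control or chronic sheep gave no call, and fits without a transition sheep were not run for this comparison. Transition sheep had 9.49 in D27, 10.34 in D24 and 11.28 in D23 on the left. On the right they had 9.58 in D27, 10.09 in D24 and 11.34 in D23. Their changes were 1.13 ± 0.75 (SE, limma adjusted p = 0.417) on the left and 1.29 ± 0.75 (SE, limma adjusted p = 0.492) on the right.

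ENSOARG00000010493 was present at high levels in cardiomyocytes of every sheep, between 8.49 and 11.09, with 3198 reads or more in each library. Left controls had 9.25 in C1, 10.06 in S4 and 10.68 in S3, and left chronic sheep 9.55 in D20, 9.60 in D16 and 9.75 in D19. The 3 chronic values fell inside the control range. Right controls had 9.57 in C1, 10.32 in S4 and 11.09 in S3, and right chronic sheep 9.15 in D19, 9.19 in D20 and 9.61 in D16. Only the control C1 lay within the chronic range, 0.039 below D16. The chronic change was −0.36 ± 0.34 (SE, limma adjusted p = 0.570) on the left and −1.01 ± 0.34 (SE, limma adjusted p = 0.0925) on the right. The left change ran from −0.73 without C1 to −0.019 without S3, so it nearly vanished on leaving out 1 sheep. Without C1 the right change was −1.39 and passed (limma adjusted p = 0.0322), in a fit that called 331 of 12258 genes. Without S3 the right change was −0.63 (limma adjusted p = 0.402). Left transition sheep had 8.49 in D24, 9.15 in D27 and 9.65 in D23, and right transition sheep 9.41 in D27, 9.44 in D23 and 9.69 in D24. Transition changes were −0.90 ± 0.34 (SE, limma adjusted p = 0.147) on the left and −0.81 ± 0.34 (SE, limma adjusted p = 0.303) on the right. Without S3 they were −0.56 (limma adjusted p = 0.394) and −0.43 (limma adjusted p = 0.769). The left one passed without D23, at −1.17 (limma adjusted p = 0.0459), and with sample quality weights, at −1.07 (limma adjusted p = 0.0441). Those fits called 1301 of 12267 and 1214 of 12279 genes, more than the 418 called with all sheep and no weights. It was −0.60 without D24 and −0.93 without D27, the sheep whose left libraries stood apart on the first principal component.

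Of the 2 genes 0 were called in any of the 4 cardiomyocyte comparisons. The shares of the 12279 genes called by limma were 7.64% for left chronic, 5.16% for right chronic, 3.4% for left transition and 0.652% for right transition sheep. At an unadjusted p under 0.05 the shares were 23.7%, 21.4%, 21% and 13.4% in that order. Unadjusted p was under 0.05 for ENSOARG00000008817 in both chronic comparisons (0.0268 and 0.0104) and for ENSOARG00000010493 in right chronic (0.00862), left transition (0.0170) and right transition (0.0292). Voom weights on recovered reads called neither gene. The exact permutation p of each of these comparisons lay between 0.2 and 0.5. The chronic change on the left less that on the right was tested as well. ENSOARG00000008817 had −0.35 ± 0.78 (SE, limma adjusted p = 0.871) and ENSOARG00000010493 had 0.65 ± 0.35 (SE, limma adjusted p = 0.399), where limma called 0.358% of genes and 14.2% had an unadjusted p under 0.05.

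**Figure D2:**
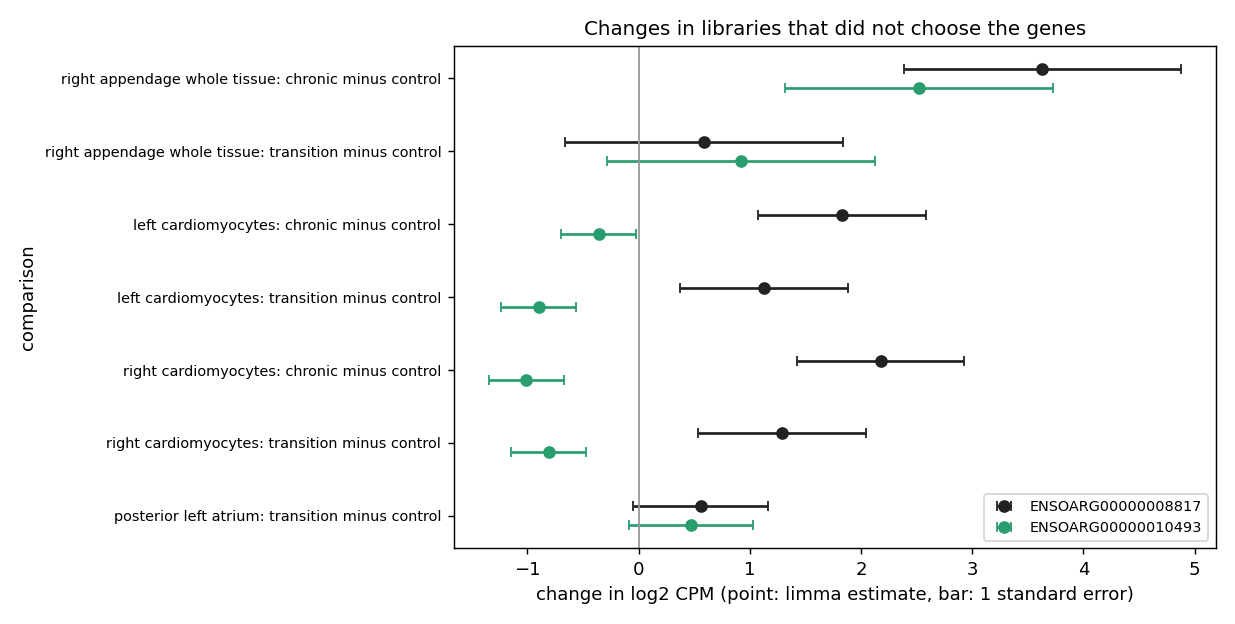
Change in log2 CPM (horizontal axis) of each gene in the 7 comparisons whose libraries did not choose the genes, as limma estimates with 1 standard error. All 7 include control sheep S3, S4 and C1, whose left whole tissue did choose them. ENSOARG00000008817 lies above 0 throughout, and ENSOARG00000010493 lies above 0 in tissue and below 0 in cardiomyocytes; none passed after adjustment over all genes.

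In the posterior left atrium both genes spread over a wide range in each state. ENSOARG00000008817 ranged in controls from 6.25 in C1 to 9.43 in G21 with a median of 7.60, and in transition sheep from 7.27 in G26 to 9.54 in G13 with a median of 8.24. The 2 states overlapped over most of their range. Its change was 0.56 ± 0.61 (SE, limma adjusted p = 0.581; exact permutation p = 0.431 within sets of sheep). The G-numbered sheep carry the technical replicate labels L7 and L8 and the others a single L3, L5 or L6, and within the G-numbered sheep the change was −0.21 against 1.65 in sheep with S, C and D names. ENSOARG00000010493 ranged from 5.35 in C1 to 8.63 in S3 in controls, with a median of 7.87, and from 6.97 in G13 to 9.21 in G34 in transition sheep, with a median of 7.61. C1 and G36, at 5.93, were below every transition sheep, while the other 4 controls lay inside the transition range. Its change was 0.47 ± 0.56 (SE, limma adjusted p = 0.618; exact permutation p = 0.489 within sets), with 0.52 in the G-numbered sheep and 0.40 in the others. Neither gene was called, against 17.5% of 12035 genes, or 31.2% at an unadjusted p under 0.05. An increase of the size seen in chronic appendage tissue was not looked for here, as the posterior left atrium has no chronic sheep.

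The wide spread between control sheep in left whole tissue was part of how the genes were chosen. The controls of right whole tissue and of cardiomyocytes are the same sheep, S3, S4 and C1, which are also among the posterior left atrium controls. The spreads given here are therefore not independent of that choice. In right whole tissue the SD between control sheep was 1.99 for ENSOARG00000008817 and 2.71 for ENSOARG00000010493, above 99.6% and 99.9% of the genes tested, where the median gene had 0.26. In posterior left atrium controls the SDs were 1.44 and 1.35, and 98 and 117 of the 12035 genes had a higher one. In control cardiomyocytes ENSOARG00000008817 had 1.81 on the left and 1.89 on the right, above 99.7% of genes on each side. The spread of this gene was not limited to controls, with SDs of 2.34 and 2.30 in left and right transition tissue, 0.90 in transition cardiomyocytes of each side, and 0.70 to 1.20 in the 4 chronic groups. ENSOARG00000010493 had control SDs of 0.71 and 0.76 in left and right cardiomyocytes, above 94.6% and 94.4% of genes, and 0.58 in left transition cardiomyocytes, above 85.6%. In chronic cardiomyocytes it had an SD of 0.10 on the left and 0.25 on the right, above 19.3% and 50.2% of genes, so it varied there no more than the typical gene. No test of these spreads was made.

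**Figure D3:**
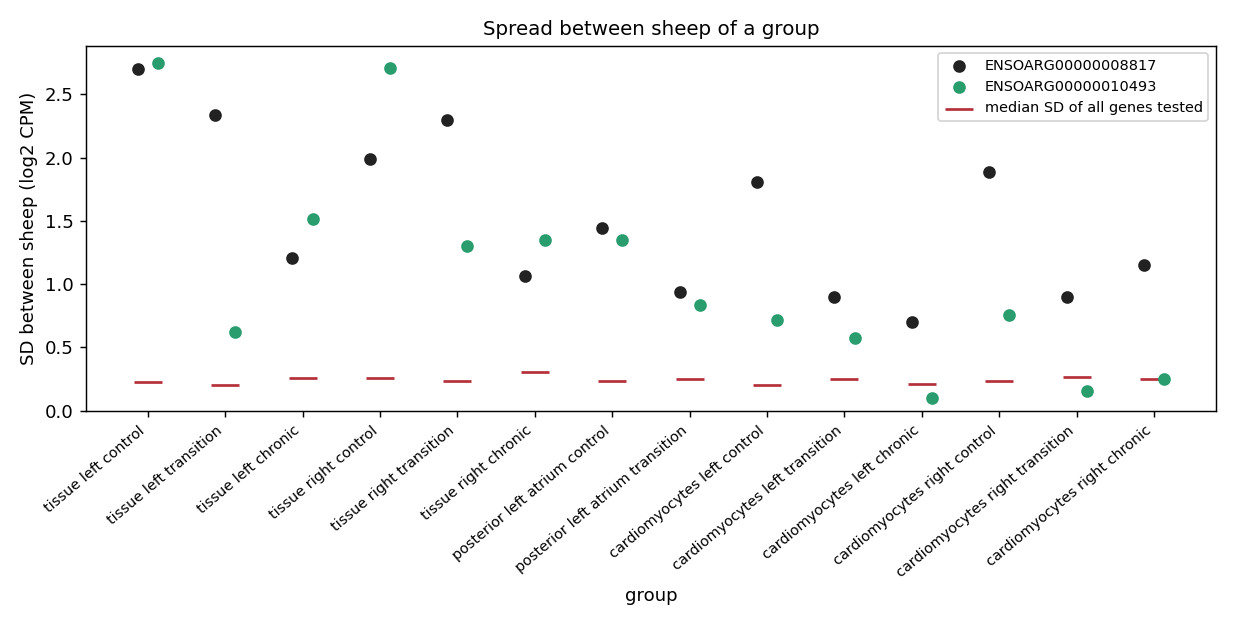
SD of log2 CPM between the sheep of each group (vertical axis) for both genes, with the median SD over all genes tested as a red bar. ENSOARG00000008817 lies well above the median in all groups, and ENSOARG00000010493 falls to 0.10 to 0.25 in left and right chronic and right transition cardiomyocytes.

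The level of ENSOARG00000008817 followed the sheep across libraries. S3, S4 and C1 are the controls with libraries of every kind. S4 was 2.95 to 4.56 log2 units above the nearer of S3 and C1 in left and right tissue, left and right cardiomyocytes and posterior left atrium. S3 and C1 differed by at most 0.56. In the posterior left atrium the control G21, at 9.43, was higher still than S4, at 9.32. The left and right cardiomyocyte libraries of a sheep differed by 0.63 at most over 9 sheep, with a median size of 0.13. In whole tissue the left and right libraries differed by a median size of 0.56 over 9 sheep, from 0.0067 in D30 to 1.76 in D15. The transition sheep had the 3 smallest differences. Around the group means, the correlation of the left and right libraries of a sheep was 0.93 in tissue and 0.97 in cardiomyocytes, higher than in 99.5% and 99.7% of genes, for which the medians were 0.29 and 0.47. These are descriptions over 9 sheep in each table. Between right tissue and right cardiomyocytes of the 7 sheep that gave both, Pearson's r was 0.956 (exact permutation p = 0.00258, adjusted p = 0.0103 over 4 relations) and Spearman's rho 0.929 (exact permutation p = 0.00675, adjusted p = 0.0135). Without C1 and S3, the sheep farthest from the median, r was 0.861 over 5 sheep. The sheep come from all 3 states and were permuted across them, so state is part of this relation. Among them are S3, S4, C1, D16 and D19, whose left tissue chose the gene. The p-values are therefore not independent of that choice.

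For ENSOARG00000010493 the sheep kept less of their order. C1 was the lowest of the controls in all 5 materials and regions, and the gap to the next of S3 and S4 was 4.54 in left tissue, 2.94 in right tissue, 2.62 in the posterior left atrium, 0.80 in left cardiomyocytes and 0.75 in right cardiomyocytes. In the posterior left atrium the control G36, at 5.93, was closer to C1, at 5.35, than either. S3 was above S4 everywhere but in left tissue. Left and right libraries of a sheep differed by up to 2.87 in tissue (D15) and up to 1.20 in cardiomyocytes (D24), and their correlation around the group means was 0.71 and 0.60, higher than in 89.3% and 64.6% of genes. Between right tissue and right cardiomyocytes Pearson's r was 0.157 (exact permutation p = 0.706, adjusted p = 0.840) and Spearman's rho 0.107 (exact permutation p = 0.840, adjusted p = 0.840), and r was 0.231 without C1 and D16.

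**Figure D4:**
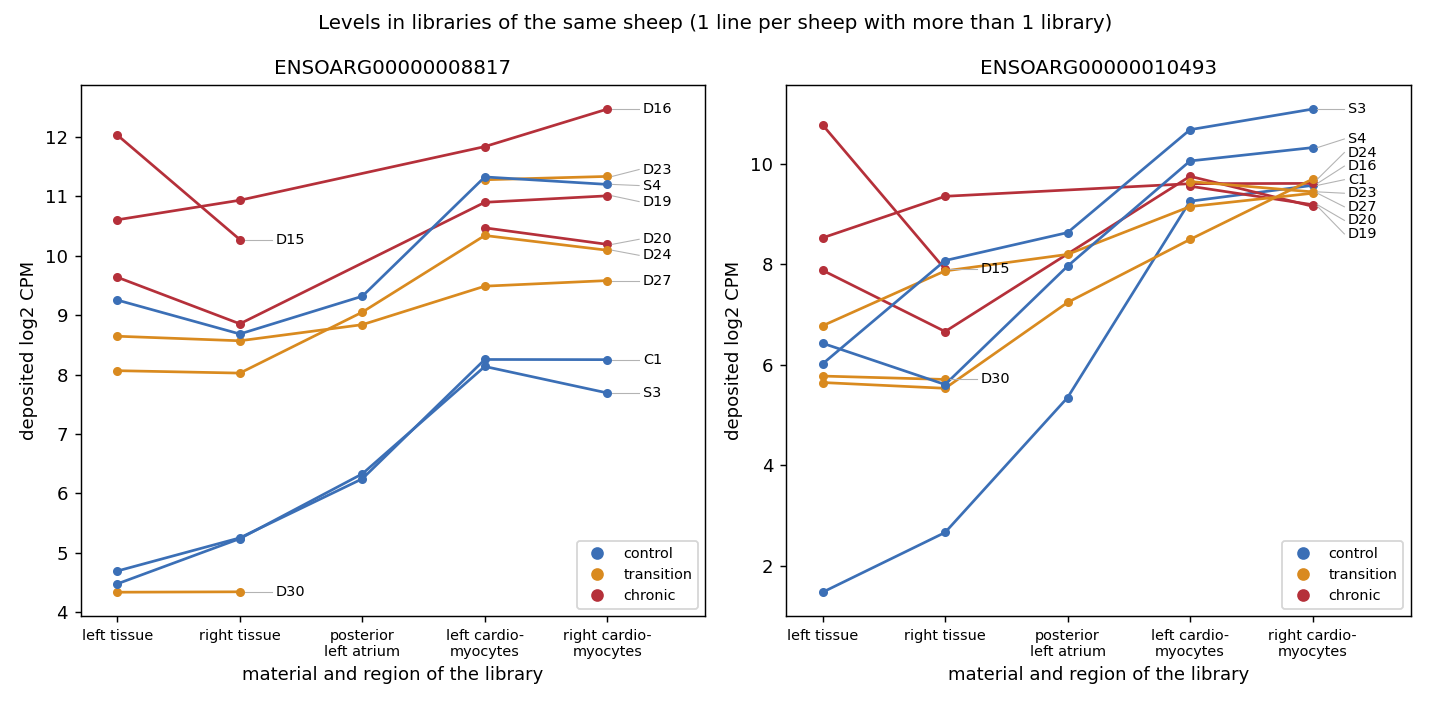
Deposited log2 CPM (vertical axis) of both genes in the libraries of each sheep, joined by a line coloured by state; a sheep with no point at a region has no library there, and the 3 tables were normalised separately. For ENSOARG00000008817 the lines of S3 and C1 stay below that of S4 throughout, and for ENSOARG00000010493 the lines come together in cardiomyocytes at 8.49 to 11.09.

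Side by side, both genes had higher deposited values in cardiomyocytes than in tissue of the same sheep and side, in 7 of 7 sheep on each side. For ENSOARG00000008817 the gap had a median of 2.15 on the right, where it was smallest in D27 (1.01) and largest in C1. The gap of ENSOARG00000010493 on the right ran from 0.26 in D16 to 6.91 in C1, with a median of 3.01, and on the left from 1.08 in D16 to 7.78 in C1. The chronic sheep D16 thus had the smallest gap on both sides for this gene, and the control C1 the largest. As the tables were normalised separately, these gaps were not tested. The share of all genes with higher cardiomyocyte values in every sheep was not counted, so the gaps cannot be called particular to these genes.

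Across the 18 whole tissue libraries the 2 genes had a Pearson's r of 0.708 with each other, across 18 cardiomyocyte libraries −0.290 and across 12 posterior left atrium libraries 0.014. Libraries of a sheep are not independent, and these values, like those that follow, describe likeness and were not tested. The 2 genes most like each of them in whole tissue were taken from 12331 others by Pearson's r over the 18 libraries. ENSOARG00000019656 (r = 0.862) and ENSOARG00000016485 (r = 0.857) were nearest to ENSOARG00000008817. In cardiomyocytes their r with it was 0.293 and 0.617, and in the posterior left atrium −0.244 and 0.373. ENSOARG00000019656 was near the filter of 0, at −0.35 to 2.22 log2 CPM in whole tissue. ENSOARG00000008183 (r = 0.948) and ENSOARG00000015208 (r = 0.935) were nearest to ENSOARG00000010493, and 3 genes had an r of 0.9 or more with it, against 0 genes for ENSOARG00000008817. In the posterior left atrium r with ENSOARG00000010493 was 0.882 and 0.742, and in cardiomyocytes 0.732 and 0.030. Those libraries did not choose these 2 genes, but S3, S4, C1, D24 and D27 gave libraries of every kind. The share of all genes with such an r there was not counted. In left tissue C1 was lowest for both, at 4.96 and 4.24, and D15 highest, at 8.20 and 9.59. The range of each there was narrower than that of ENSOARG00000010493, which ran from 1.47 to 10.77.

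**Figure D5:**
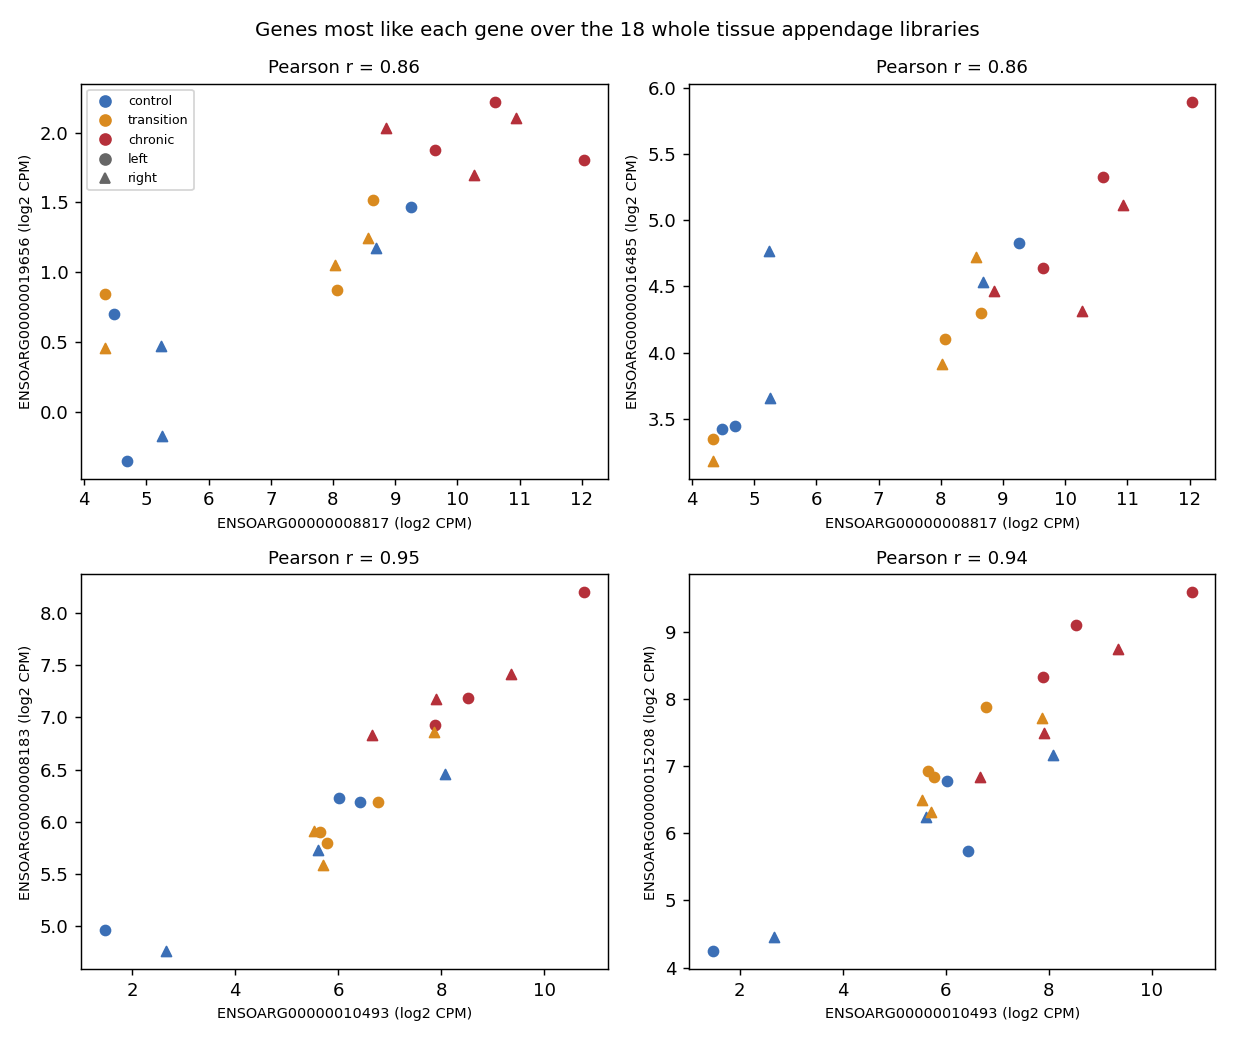
Log2 CPM of each gene (horizontal axes) against that of the 2 genes most like it (vertical axes) in the 18 whole tissue appendage libraries, coloured by state, with circles for left and triangles for right. Both libraries of C1 lie at the lower left of the lower panels, and the left library of D15 at the upper right.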

How the data were processed

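RNA of sheep atria was made into NEBNext Ultra libraries, per the labels. Tools listed, unversioned, in the submitters' processing notes are RSEM, limma, cutadapt and bcl2fastq. The genome build and annotation were not given in the sources used. The authors deposited log2 values in 1 column per sheep and region, with technical replicates merged, and 0 columns lacked a sample. In the appendage tables all 237366 and 238716 values gave whole reads plus 0.5 within 0.05 reads, over scaled library sizes (factors 0.828 to 1.14). Posterior left atrium values did not give whole reads in this way, and the reason is not recorded.

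limma 3.58.1 (R 4.3.3), with trend, was fitted to all genes with a mean log2 CPM of 0 or more, as 6 group means with the sheep as a random effect (consensus correlation 0.294 in tissue, 0.470 in cardiomyocytes; the pairing comes from sheep names in the labels), or state plus set of sheep in the posterior left atrium. Benjamini-Hochberg adjustment covered all genes tested, with a threshold of 0.05, and the fits were tested on simulated data. Replicates are sheep. No pair of appendage libraries of a table agreed within sampling noise (chi-square per degree of freedom 10.9 or more). The genes, tests and alternatives were chosen with earlier results of these data known. The naming rule took both genes and, for each, the 2 genes with the highest Pearson's r in whole tissue. Python 3.11.15 and scipy 1.17.1 gave exact tests and intervals.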

Additional observations from a re-analysis of the deposited data

How the results depend on the processing

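In the appendage comparisons both genes kept the side of the threshold reported when whole reads were rescaled to library totals, given 10 reads as pseudocount or voom weights, and when an appendage was fitted alone (not run for the left minus right difference). The low-value filter changed no call in any table. Posterior left atrium reads could not be recovered, so the read-based settings were not run there. With no replicate block, the sheep being left out of the model, the right tissue chronic changes stayed at 3.63 and 2.52 and no call changed. Sample quality weights added 1 call, the left transition change of ENSOARG00000010493 in cardiomyocytes (−1.07). The posterior left atrium change of ENSOARG00000008817 turned to −0.21 in sheep with G numbers alone.

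Sheep were left out in turn only from the states compared, and in a fit a group left with 2 sheep borrows the spread of all groups. Over these left-out sheep the right tissue transition change of ENSOARG00000008817 ran from −0.21 to 1.91. That of ENSOARG00000010493 ran from −0.47 to 2.23 in right tissue and from −0.16 to 2.32 in left tissue. Chronic cardiomyocyte changes of ENSOARG00000008817 ran from 1.28 to 2.87 on the left and from 1.50 to 3.25 on the right, with calls without S4 only. For ENSOARG00000010493 the right chronic change in cardiomyocytes ran from −1.39 to −0.63, with a call without C1 only, and the left transition change from −1.27 to −0.56, with a call without D23 only. Counts of calls over all genes moved more: quality weights raised them from 155 to 774 (right tissue chronic), 77 to 700 (right tissue transition), 938 to 1791 (left chronic cardiomyocytes), 418 to 1214 (left transition) and 80 to 409 (right transition), while an appendage fitted alone gave 30, 13, 794, 339 and 9. Right chronic cardiomyocytes went from 633 to 157 when fitted alone. The posterior left atrium went from 2109 calls to 731 in G-numbered and 246 in other sheep. Scaling by library totals moved the median change of all genes in left chronic cardiomyocytes from −0.0068 to −0.12. Counting error was small beside the spread between sheep, apart from the 19 reads of ENSOARG00000010493 in left C1.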
